A study of Mus musculus with 16 samples.

Results

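Replication-dependent histone genes were described across bone marrow libraries of 4 mouse genotypes. The rows were those of the deposited count table that still carry an older cluster symbol (Hist1h to Hist4h), and 9 of 55291 rows did. Of these, 4 are H2A genes (Hist1h2an, Hist1h2ao, Hist1h2ap and Hist1h2al), 3 are H2B genes (Hist1h2bp, Hist1h2bq and Hist1h2br) and 2 are H4 genes (Hist1h4m and Hist1h4n). No H1 or H3 row carries an older symbol. The table lists the rest of the family under current symbols, and matching those to their older names through RefSeq synonyms gave 61 further rows, a step chosen after the table was seen. The 70 rows in all comprise 6 H1, 20 H2A, 19 H2B, 12 H3 and 13 H4 rows. All 9 older-symbol rows and 55 of the 61 others passed the filter on low counts.

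RNA came from haematopoietic stem and progenitor cells (lineage-negative, c-Kit-positive and Sca-1-positive, enriched on beads) of 16 individual C57BL/6 mice, 4 per genotype. WT is wild type, Asxl1Tg carries the transgene Asxl1Y588XTg, a truncated form of the chromatin regulator Asxl1, Srsf2P95H has the genotype Srsf2P95H/+, with a substitution on 1 allele of Srsf2 (a splicing factor), and DM carries both changes. No allele is shared by all 4 groups. The sources used here state neither the promoter that drives the transgene nor the age or sex of the mice. By its title, the study is about leukaemia driven by the transgene and its aggravation by the second mutation. A total of 4 DM libraries was analysed, although the design text counts 3 such mice. Columns of Asxl1Tg were identified as the remaining name in the table, which shortens the gene's name.

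Replication-dependent histone genes lie in clusters, mostly lack introns and are transcribed in S phase, when new DNA has to be packed into nucleosomes. H2A, H2B, H3 and H4 form the nucleosome core and H1 binds the linker DNA between cores. Their mRNAs end in a conserved stem-loop in place of a poly(A) tail, which is bound by Slbp and cut with the help of the U7 snRNP. Progenitor cells of the marrow divide often, and such cells are a usual source of these transcripts. Because the RNA is from bulk cells, fewer cells in S phase and less histone RNA per cell cannot be told apart. The labels name the library kit but not whether poly(A) RNA was selected.

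Total counts ran from 82.99 to 127.6 M (megacounts) per library. All 10 markers of the labelled cells were detected and summed to 2444 to 3751 CPM (counts per megacount of library after TMM scaling) across the 16 libraries, Kit and Cd34 leading with means of 923.1 and 870.6 CPM. The lowest means of the 10 were those of Slamf1 (7.276 CPM), Procr (22.39 CPM) and Ly6a, the Sca-1 gene (36.19 CPM). The 6 eosinophil markers, none of them undetected across the series, summed to 34.84 to 1546 CPM in WT, 32.36 to 298.0 in Asxl1Tg, 65.18 to 463.7 in Srsf2P95H and 45.38 to 110.5 in DM, with the highest sum in WT 4. Asxl1 ranged over 213.2 to 226.5 CPM in WT, 217.5 to 235.2 among Asxl1Tg libraries, 205.5 to 234.0 in Srsf2P95H and 217.9 to 236.3 in DM, so its total level did not separate the labelled groups, and gene counts do not read the Srsf2 substitution.

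All older-symbol genes but 1 lie within 1 stretch of chromosome 13 (GRCm38, GENCODE M21 annotation). From the left these are Hist1h2an (21786826 to 21787218, minus strand), Hist1h2bp (21787461 to 21789213, plus), Hist1h2bq (21806612 to 21810197, minus), Hist1h2ao (21810465 to 21810944, plus), Hist1h4m (21811746 to 21812147, plus), Hist1h4n (21831767 to 21832196, minus), Hist1h2ap (21833026 to 21833507, minus) and Hist1h2br (21833743 to 21837530, plus). The block Hist1h2bq, Hist1h2ao and Hist1h4m therefore recurs in mirror order as Hist1h4n, Hist1h2ap and Hist1h2br. Hist1h2al lies apart on the same chromosome (51202727 to 51203065) and is annotated as a processed pseudogene. In the annotation a miRNA gene on the opposite strand overlaps each of the 4 H2A rows, and whether the counting used strand is not stated in the sources used here.

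The mirrored genes are near-identical, which bears on how reads can be told apart. Over their 402 shared transcript bases Hist1h4m and Hist1h4n differ at 1 position, G36A (Hist1h4m first, counted from the 5′ end of the annotated transcript), which lies just before the start codon at position 39. The 30 bases around it (positions 22 to 51, GENCODE M21) are shown because they hold the only difference over the shared bases of this pair. The capital marks that base.
Hist1h4m: acagttttgtcttcGtcatgtctggtcgtg
Hist1h4n: acagttttgtcttcAtcatgtctggtcgtg

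Of the 303 windows of 100 bases (the read length) in Hist1h4m, 36 occur in no other gene's transcript, and these are the 36 windows that hold position 36. In Hist1h4n 19.34% of windows were unique to it. Hist1h2bq reached 5.16%, Hist1h2ao 7.35%, Hist1h2ap 7.83%, Hist1h2br 13.56% and Hist1h2an 16.67%, whereas Hist1h2bp reached 68.86% and the pseudogene Hist1h2al 80.83%. Thus 7 of the 9 older-symbol rows had under 20% unique windows, against 9 of the 61 other rows, with medians of 13.56% and 67.82%. The median was 99.6% for H1, 30.09% for H2A, 67.24% for H2B, 50.25% for H3 and 81.04% for H4 rows. H2ac18, H2ac19, H2bc18, H3c13 and H3c14 had no unique window, and these 5 are the 5 rows listed at 0 in every library. The treatment of reads that fit several genes is not stated in the sources used here, and counts of rows with few unique windows are uncertain for that reason.

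Promoter sequences (RefSeq, GRCm38.p6, 250 bases before to 50 after each start) were found for 8 of the 9 genes. The 150 bases before the starts of the H4 pair are shown because they are nearly the same. Capitals mark TATAAA and GGTCCG, the core of the H4 promoter element.
Hist1h4m, chr13:21811596-21811745, plus strand: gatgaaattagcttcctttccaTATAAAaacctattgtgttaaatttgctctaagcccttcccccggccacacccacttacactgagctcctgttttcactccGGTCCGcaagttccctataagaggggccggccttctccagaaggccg
Hist1h4n, chr13:21832198-21832347, minus strand: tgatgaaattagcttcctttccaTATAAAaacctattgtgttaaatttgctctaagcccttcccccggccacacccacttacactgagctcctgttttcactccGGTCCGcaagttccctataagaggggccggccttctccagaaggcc

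The promoters of the H4 pair were identical at 298 of 299 aligned bases, those of Hist1h2bq and Hist1h2br at 300 of 300, and those of Hist1h2ao and Hist1h2ap at all 200 aligned bases, their annotated starts being offset. Hist1h2bp, which lies outside the mirrored block, shared 71.7% of aligned promoter bases with Hist1h2bq. The 200 bases before Hist1h2bq, which Hist1h2br matches base for base, run between it and the divergent Hist1h2ao and so serve as an example of a shared H2A and H2B promoter. Capitals mark CCAAT on either strand.
Hist1h2bq, chr13:21810200-21810399, minus strand: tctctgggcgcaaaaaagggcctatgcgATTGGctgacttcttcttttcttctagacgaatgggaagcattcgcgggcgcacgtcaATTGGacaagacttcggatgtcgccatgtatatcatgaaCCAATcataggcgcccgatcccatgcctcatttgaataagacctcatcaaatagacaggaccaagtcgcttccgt

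Searched on both strands, CCAAT was in 6 of 8 older-symbol promoters and 37.9% of all 27025 promoters, and TATAAA was in 4 of 8 and 14.2%. GGTCCG was in both H4 promoters shown, in 11 of 12 H4 promoters of the family and in 8.4% of all. The octamer ATTTGCAT was in 0 of the 8, in 7 of 18 H2A and 6 of 16 H2B promoters of the family, and in 1.8% of all. The histone 3′ stem-loop, searched on the transcript strand, was in 5 of the 9 older-symbol genes and 44 of 70 family members. It reads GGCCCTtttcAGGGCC in Hist1h4m and Hist1h4n and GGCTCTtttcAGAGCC in Hist1h2ao, Hist1h2ap and Hist1h2bp, where capitals mark the paired bases. These matches describe letters in the annotated sequences and were not related to the counts. Rows without a stem-loop match include H4c12, annotated at 312 bases, and H2bc13 and H2bc15, at 381. Where an annotated transcript stops short of the 3′ end the search could not find a stem-loop, so a missing match does not show that a gene lacks it.

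Levels per length spanned a wide range. Per kb of exon, the older-symbol rows had a median of 2.40 CPM, from 0.274 for Hist1h2ao to 257 for Hist1h4n, against a median of 254 over the 55 other rows that passed. By class, the median level per kb was 481 CPM for H1, 45.9 for H2A, 164 for H2B, 306 for H3 and 257 for H4. The 9 older-symbol rows held 1.865% of the family's summed CPM. H4 rows held 29.02% of it, H1 rows 26.33%, H2B rows 22.65%, H3 rows 16.13% and H2A rows 5.864%. These levels and shares depend on how reads that fit several genes were counted. The median of unique windows was 30.09% for H2A against 99.6% for H1 rows, and 13.56% for older-symbol against 67.82% for other rows. The part of read assignment in the low H2A and older-symbol levels was not tested.

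**Figure D1:**
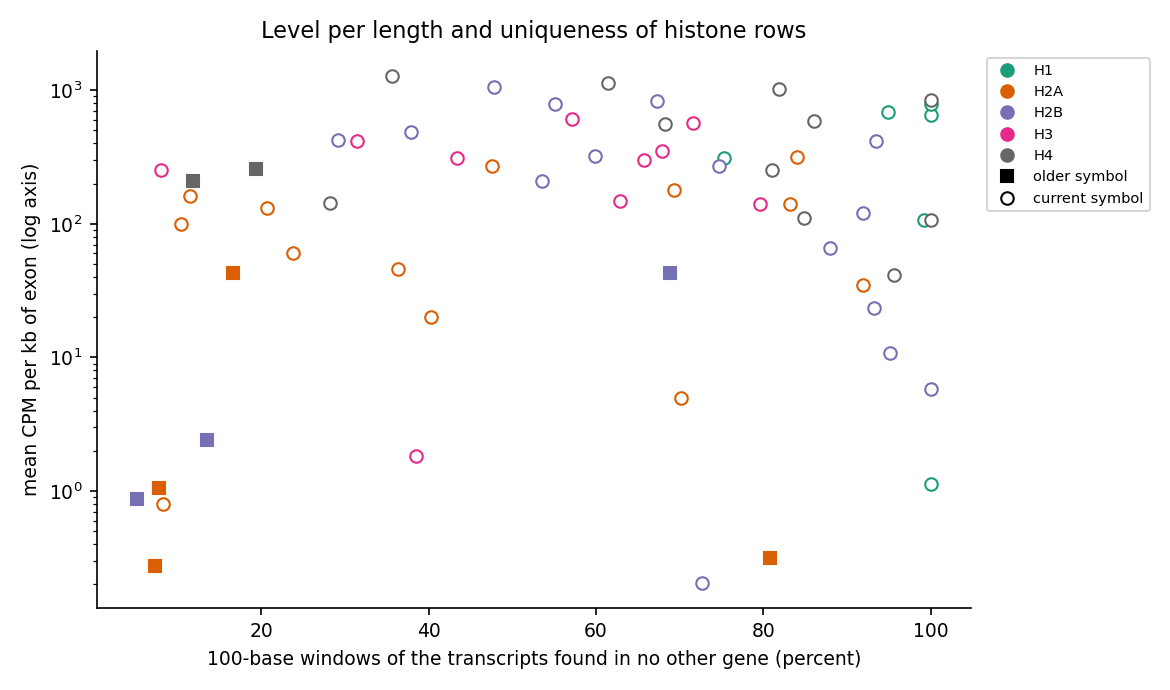
Mean CPM per kb of exon (log axis, 16 libraries) of the 64 histone rows that passed the filter, against the percent of 100-base transcript windows found in no other gene, coloured by class. Filled squares are the 9 rows under older symbols, 7 of which lie under 20%, and open circles the rows under current symbols.

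The H4 pair held most of the older-symbol counts (1.454% of the family's 1.865%). Hist1h4m was at 96.75, 109.3, 65.11 and 91.88 CPM in WT 1 to 4 and at 80.02, 48.14, 51.68 and 95.62 CPM in Asxl1Tg 1 to 4. It stood at 124.7, 55.13, 135.1 and 2.29 CPM in Srsf2P95H 1 to 4 and at 136.5, 61.11, 51.49 and 151.1 CPM in DM 1 to 4. Within each mutant genotype the 4 libraries thus split into high and low values, and Srsf2P95H 4 was far below all others.

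Hist1h4n was at 81.39, 89.21, 53.11 and 78.23 CPM in WT 1 to 4 and at 68.89, 112.6, 122.1 and 84.37 in Asxl1Tg 1 to 4. Its levels were 106.5, 129.7, 116.6 and 180.6 CPM in Srsf2P95H 1 to 4 and 124.4, 165.9, 125.9 and 128.6 CPM in DM 1 to 4. All Srsf2P95H and all DM libraries lay above all WT libraries, and Srsf2P95H 4, lowest for Hist1h4m, was the highest for Hist1h4n.

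The share of Hist1h4m in the pair's counts took 3 separate ranges. It was 54.31%, 55.06%, 55.08% and 54.01% in WT 1 to 4, 53.74% and 53.13% in Asxl1Tg 1 and 4, 53.94% and 53.67% in Srsf2P95H 1 and 3, and 52.3% and 54.02% in DM 1 and 4. In Asxl1Tg 2 and 3 it was 29.96% and 29.74%, in Srsf2P95H 2 29.82%, and in DM 2 and 3 26.92% and 29.02%. In Srsf2P95H 4 it was 1.252% (222 of 17733 counts, exact 95% interval 1.093 to 1.427%, counting error only). The widest exact interval in any library spanned 52.91 to 54.56% (Asxl1Tg 1), so the gaps between the ranges were wider than the intervals. The shares split libraries of the same mutant genotype and so do not follow the genotype labels. All 4 WT libraries were in the range from 52.3 to 55.08%, as were 2 libraries of each mutant genotype.

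Summed, the pair averaged 166.2 ± 34.18 CPM over the WT libraries, 165.9 ± 13.87 for Asxl1Tg, 212.7 ± 34.31 for Srsf2P95H and 236.3 ± 44.92 for DM (SD, n = 4). In Srsf2P95H 4 the sum was 182.9 CPM, inside the range of the WT libraries (118.2 to 198.5), although the 2 rows on their own were at the extremes of the series.

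**Figure D2:**
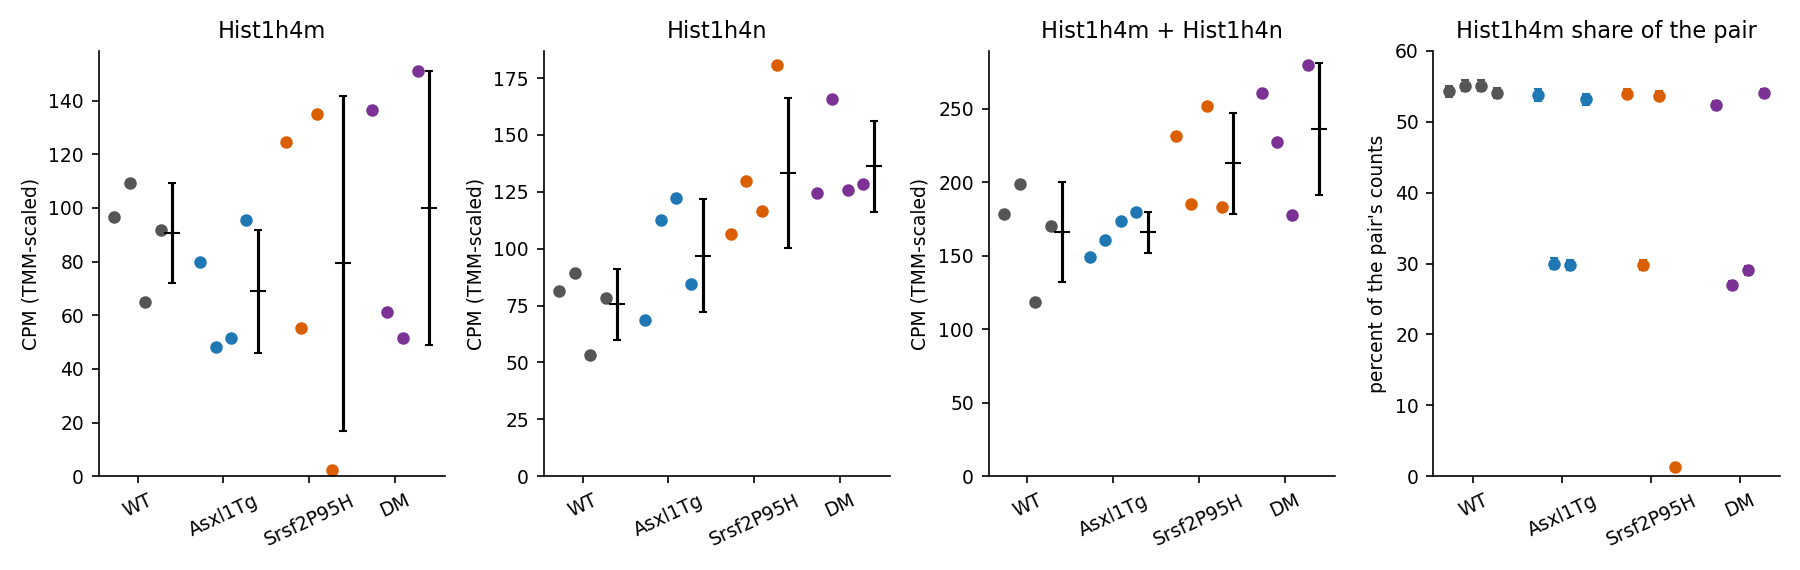
CPM of Hist1h4m, Hist1h4n and their sum in each library (points, replicates 1 to 4 from left to right; bars give mean and SD, n = 4), and the percent of the pair's counts held by Hist1h4m with exact 95% intervals. Shares lie at 52.3 to 55.08% in 10 libraries, at 26.92 to 29.96% in 5 and at 1.252% in Srsf2P95H 4.

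H4c9, another H4 gene of the same chromosome (22040636 to 22041362), was singled out after its values were seen. Its values were 46.95, 57.79, 36.94 and 49.12 CPM for WT 1 to 4, 85.65, 91.76, 102.0 and 69.6 for Asxl1Tg, 69.0, 98.48, 64.15 and 144.9 for Srsf2P95H and 67.65, 131.1, 99.36 and 74.24 for DM. Within each mutant genotype the libraries with the lower Hist1h4m share had the higher H4c9 level. In H4c9 84.87% of windows were unique to the gene. A further 3 genes of that chromosome, also picked by their values, were lowest in Srsf2P95H 4. H2bc15 (21754123 to 21754503) was at 161.1 CPM there against 268.8 to 581.6 in the other 15 libraries, H2bc11 (22043214 to 22043676) at 55.43 against 90.52 to 241.1, and H2ac11 (22042460 to 22042944) at 8.367 against 19.03 to 44.08. Within each mutant genotype the libraries with the lower Hist1h4m share also had the lower H2bc15 and H2bc11 levels. H2bc15 was at 432.1, 306.6, 341.9 and 406.7 CPM in Asxl1Tg 1 to 4. It was at 424.5, 408.2 and 533.2 in Srsf2P95H 1 to 3 and 513.4, 350.3, 268.8 and 576.6 in DM 1 to 4. H2ac11 did so too except in Asxl1Tg, where library 3 (25.45 CPM) lay above library 1 (22.43 CPM). Over the 64 family rows that passed, Srsf2P95H 4 was the lowest library in 12 and the highest in 2. No test was made of these patterns, since the libraries were set apart by the values themselves.

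Among the H2A genes with older symbols, Hist1h2an was the most abundant. WT 1 to 4 had 16.36, 18.66, 12.5 and 13.08 CPM, Asxl1Tg 19.74, 18.88, 17.29 and 19.23, Srsf2P95H 17.08, 13.04, 19.11 and 12.78, and DM 18.56, 18.35, 13.44 and 23.02. All 4 groups overlapped. The mirrored Hist1h2ao and Hist1h2ap gave few counts, at 0.0345 to 0.231 CPM (3 to 25 counts) and 0.323 to 0.765 CPM (28 to 93 counts) over the 16 libraries. Hist1h2ao held between 8.571% (3 of 35 counts in Srsf2P95H 2, exact 95% interval 1.804 to 23.06%) and 41.67% of that pair's counts (20 of 48 in WT 1, 27.61 to 56.79%). The pseudogene Hist1h2al was at 0.150, 0.216, 0.118 and 0.0905 CPM in WT and 0.0810, 0.0456, 0.0716 and 0.0658 in DM, 5 to 18 counts a library in these groups. Its DM libraries all lay below its WT libraries.

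Hist1h2bp led the H2B genes with 27.8, 37.68, 18.59 and 20.48 CPM for WT 1 to 4, 34.84, 36.17, 35.93 and 28.24 for Asxl1Tg, 22.36, 31.11, 33.14 and 35.68 for Srsf2P95H and 27.35, 38.58, 27.13 and 32.35 for DM. WT 3 and WT 4 were the lowest of all libraries, and WT 2 was among the highest, so that no genotype stood clear of WT. Hist1h2bq ranged from 1.3 to 2.352 CPM and Hist1h2br from 3.313 to 7.912 CPM over the series. Hist1h2bq held 25.38 to 30.42% of that pair's counts in WT, 20.65 to 23.76% in Asxl1Tg, 20 to 26.58% in Srsf2P95H and 22.72 to 36.72% in DM. All Asxl1Tg shares lay below all WT shares, which was not tested, while the other 2 genotypes overlapped WT.

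**Figure D3:**
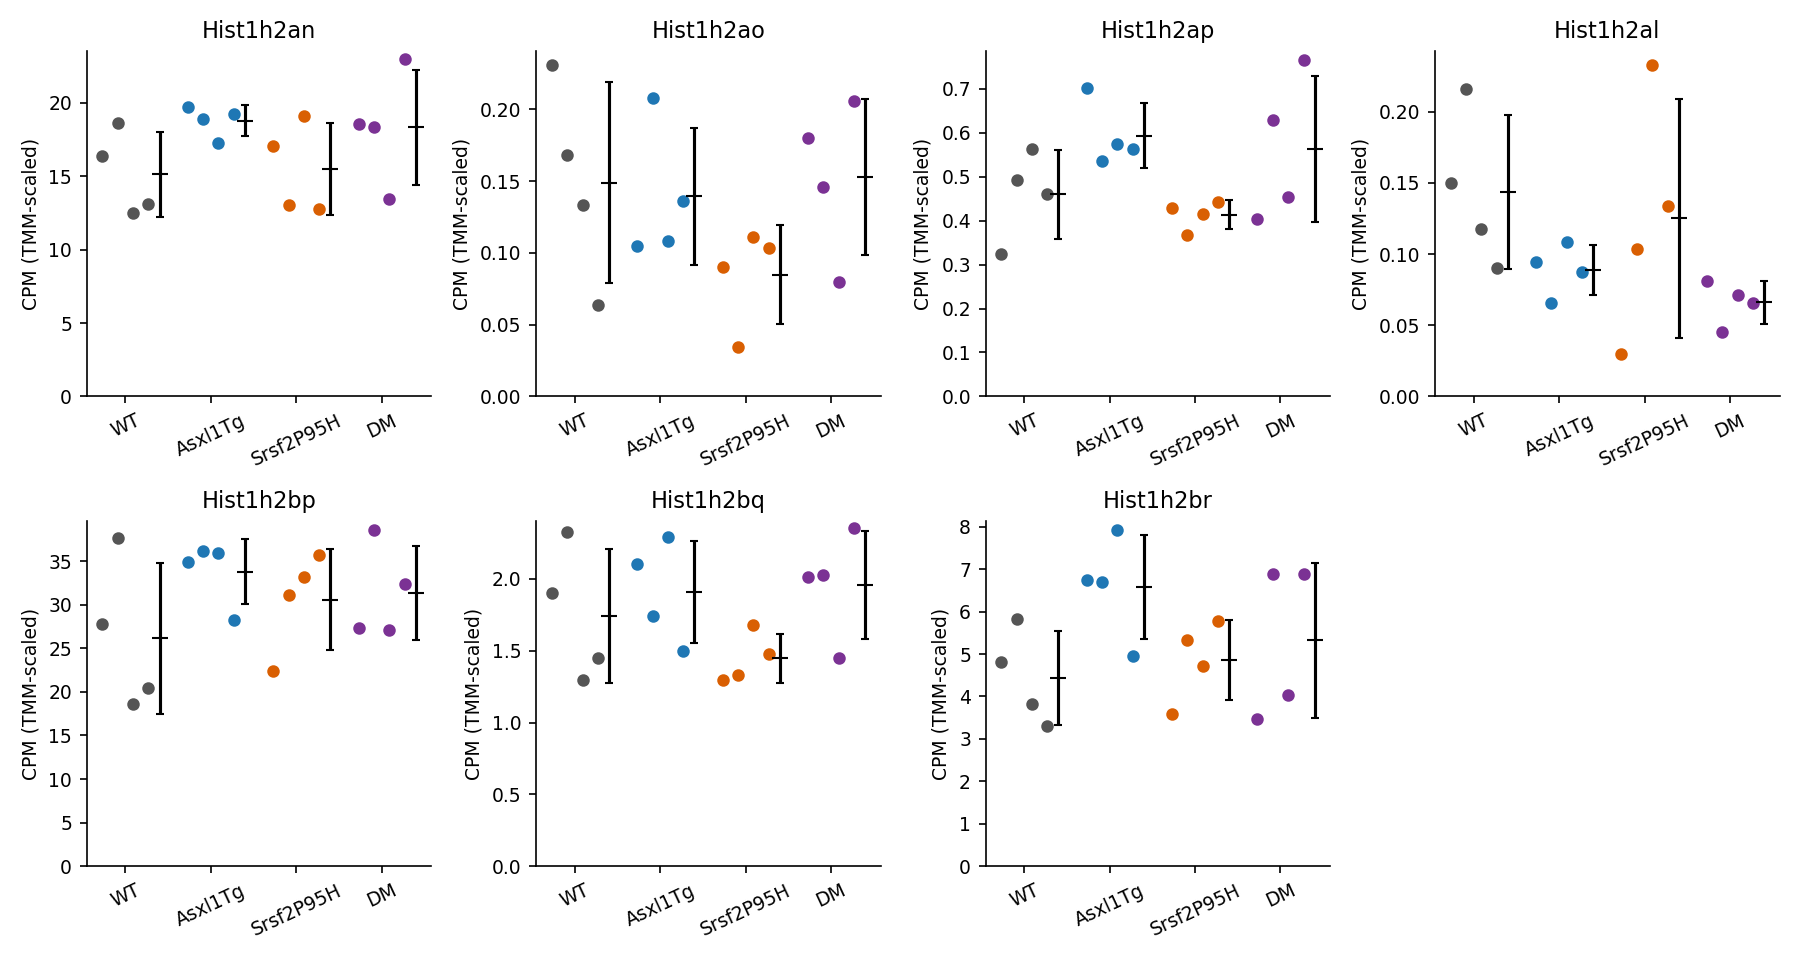
CPM of the 4 H2A and 3 H2B rows under older symbols in each library (points, replicates 1 to 4 from left to right; bars give mean and SD, n = 4). The axes differ in scale, since Hist1h2an and Hist1h2bp reach 23.02 and 38.58 CPM while Hist1h2ao, Hist1h2ap and Hist1h2al stay under 1 CPM.

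In the double mutant, 1 of the 9 older-symbol rows passed the test against WT. Hist1h4n was 0.85 higher on the log2 scale (SE 0.21, edgeR quasi-likelihood test with Benjamini-Hochberg adjusted p = 0.0243, higher in 4 of 4 libraries). Over all genes tested 9.39% were called in this comparison, 4.65% as higher, so 1 of 9 stands near that background. The call rests on telling Hist1h4n from Hist1h4m: with both counted as 1 row, the pair's difference was 0.51 (SE 0.16, adjusted p = 0.0533) and did not pass. The summed pair did pass when WT 2 (adjusted p = 0.0488) or DM 3 (adjusted p = 0.0239) was left out, with adjusted p-values of 0.0588 to 0.149 without each of the other 6 WT and DM libraries. The Hist1h4n call was lost when WT 3, WT 4, DM 1 or DM 2 was left out. Hist1h4m itself differed by 0.14 with an SE of 0.77 (adjusted p = 0.922), and its DM libraries ran from 51.49 to 151.1 CPM.

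None of the other 8 passed. Hist1h2al had the lowest value, -1.09 (SE 0.51, adjusted p = 0.161), from 5 to 18 counts a library, and its groups did not overlap. Hist1h2an differed by 0.28 (SE 0.17), Hist1h2ap by 0.29 (SE 0.25), Hist1h2ao by 0.05 (SE 0.47), Hist1h2bp by 0.26 (SE 0.20), Hist1h2bq by 0.17 (SE 0.22) and Hist1h2br by 0.26 (SE 0.24). The median over the 9 was 0.26, against -0.02 over all genes tested.

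In the same comparison edgeR called 13 of the 64 family rows that passed the filter, all as higher. Of all genes edgeR called 9.39%, with 4.65% called as higher. DESeq2 called 20 of the 64, where DESeq2 called 17.2% of all genes. The edgeR calls by class follow. H1 rows were called in 3 of 6, H3 rows in 4 of 10, H4 rows in 4 of 13, H2B rows in 2 of 18 and H2A rows in 0 of 17. Of the 17 H2A rows 5 had an unadjusted p under 0.05, near the background of 6954 of all 22749 genes tested. The 3 linker histone genes H1f3 (0.48, SE 0.11, adjusted p = 0.0197), H1f4 (0.32) and H1f5 (0.49) rose, as did the H3 genes H3c8 (0.63), H3c10 (0.50), H3c2 (0.41) and H3c4 (0.40). The H4 genes H4c9 (0.96, SE 0.26, adjusted p = 0.0389) and H4c1 (0.59) and the H2B genes H2bc7 (0.55) and H2bc13 (0.45) rose too. H1f3 was at 662.3 ± 94.10 CPM in WT and 922.7 ± 110.7 in DM (SD, n = 4), and its groups did not overlap. In all, 59 of 64 rows lay above 0 with a median of 0.31. With scaling by library size only, 551 of 2043 called genes of the whole table were higher, against 1058 of 2135 with TMM, the median of all genes was -0.12 against -0.02, and 57 of 64 histone rows lay above 0 with a median of 0.21. By class the median was 0.40 for H1, 0.23 for H2A, 0.26 for H2B, 0.36 for H3 and 0.48 for H4, and differences between classes were not tested.

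Single libraries decided this count. Of the 64 rows, 35 had their lowest value of the series in WT 3 and 36 their highest in DM 4. Without WT 3 or without DM 2 edgeR called 0 family rows, without DM 4 it was 1, without WT 4 or without DM 1 it was 2, and without DM 3 it was 23. Over all genes, 2135 (9.39%) were called with every library, 677 (2.92%) without WT 3 and 592 (2.55%) without DM 2. The share of all genes called was 3.19% without DM 4, 4.51% without WT 4, 2.52% without DM 1 and 11.5% without DM 3. WT 3 and WT 4 also stood apart in marker sums. In WT 3 the 10 markers of the labelled cells had their highest sum of the series (3751 CPM), and those of mature neutrophils (4.99 CPM, 7 genes), monocytes and macrophages (49.36 CPM, 5 genes) and erythroid cells (21.01 CPM, 6 genes) their lowest. In WT 4 the sums for eosinophils (1546 CPM), B lineage (131.6 CPM, 8 genes), mature neutrophils (151.9 CPM) and mast cells and basophils (289.4 CPM, 5 genes) were the highest of the series. None of these genes was at 0 in every library. The part of these cells in the count was not tested beyond leaving each library out.

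Neither single mutant had a called family row in the edgeR test. Against WT, 0 of 9 older-symbol rows were called in Asxl1Tg by edgeR and by DESeq2, with 1 at an unadjusted p under 0.05, where 1.88% of all genes were called. Hist1h2br (0.57, SE 0.25, adjusted p = 0.193), Hist1h2bp (0.37) and Hist1h2an (0.31) had the smallest p-values. Hist1h4m differed by -0.40 (SE 0.77), Hist1h4n by 0.36 (SE 0.21), and the summed pair by 0.00 (adjusted p = 0.994). Of the 64 family rows 52 lay above 0, with a median of 0.14, and 10 had an unadjusted p under 0.05. So had 4884 of all 22749 genes tested, so neither this count nor the 1 of 9 is an excess over all genes. DESeq2 called 4 of the 64, where it called 8.23% of all genes, so its count is no excess over the background. With 1 library left out edgeR called 1 of the 64 without WT 1 (4.1% of all genes called) and 2 without Asxl1Tg 2 (10%).

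In Srsf2P95H 0 of 9 were called by edgeR, with 1 at an unadjusted p under 0.05, and 0.506% of all genes were called. Hist1h4n differed by 0.82 (SE 0.21, adjusted p = 0.0579, higher in 4 of 4 libraries), and DESeq2 called 1 of the 9. As 1 row the H4 pair differed by 0.36 (adjusted p = 0.173). Hist1h4m differed by -0.19 with all libraries (SE 0.77) and by 0.21 without Srsf2P95H 4. Hist1h2ao (-0.78, SE 0.49) and Hist1h2bq (-0.27, SE 0.22) came next by p-value. In the family 51 of 64 rows lay above 0 with a median of 0.21, and 17 had an unadjusted p under 0.05. So had 5757 of all 22749 genes tested, so the 17 stand near that background. DESeq2 called 6 of the 64, where it called 11.4% of all genes, so its count is no excess over the background either. With 1 library left out edgeR called 3 family rows without WT 1 (7.06% of all genes called) or Srsf2P95H 2 (6.6%). In each case 1 of them was an older-symbol row. Without WT 2 it called 1 family row (0.112%).

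**Figure D4:**
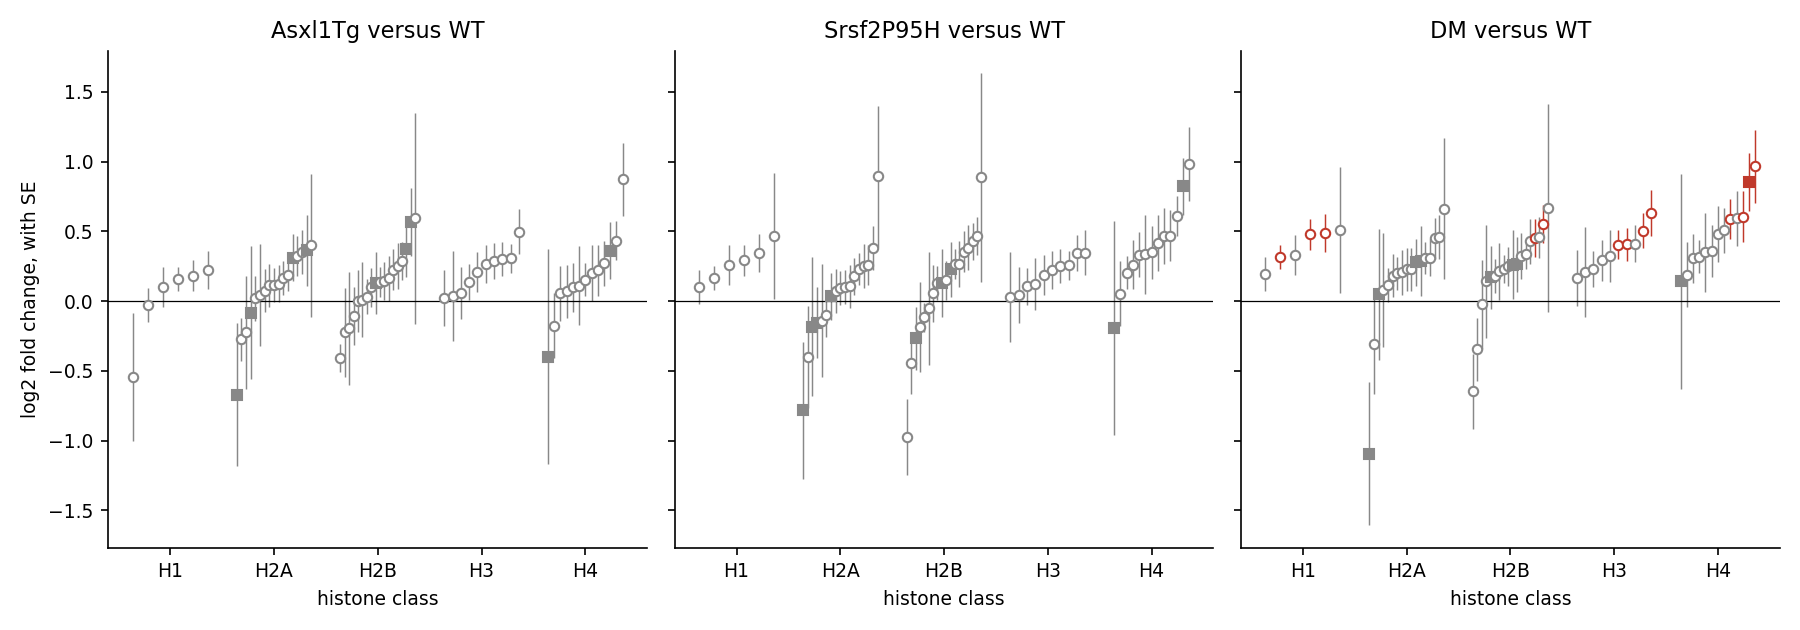
Log2 fold change with its SE for the 64 histone rows that passed the filter, by class and sorted within it, in each mutant genotype against WT. Red points are called (adjusted p under 0.05) and filled squares are rows under older symbols; called rows appear only in the DM panel, where 13 stand above 0.

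Comparisons of DM with each single mutant share the DM libraries with the comparison against WT. Against Asxl1Tg, 0 of 9 older-symbol rows were called by edgeR or DESeq2, with 1 at an unadjusted p under 0.05, and 1.08% of all genes were called by edgeR and 5.13% by DESeq2. An unadjusted edgeR p under 0.05 was found for 4043 of all 22749 genes tested. Hist1h4n differed by 0.49 (SE 0.21, adjusted p = 0.227) with groups that did not overlap, and the summed pair by 0.51 (adjusted p = 0.114). In the family H2bc21 alone rose (0.64, SE 0.10, adjusted p = 0.0121), an H2B gene of the cluster on chromosome 3 all of whose windows are unique. That call was lost without Asxl1Tg 1, Asxl1Tg 4, DM 2 or DM 4. Against Srsf2P95H, 0 of 9 were called by either tool, none at an unadjusted p under 0.05, and 0.246% of all genes were called by edgeR and 1.03% by DESeq2. Here 1475 of all 22749 genes tested had an unadjusted edgeR p under 0.05. There Hist1h2bq differed by 0.44 (SE 0.22), Hist1h2al by -0.91 (SE 0.52) and Hist1h2ap by 0.44 (SE 0.26). The interaction term (DM - Asxl1Tg - Srsf2P95H + WT), which asks whether the combined change departs from the sum of the single ones, called 0 of 9 by either tool, with 0 at an unadjusted p under 0.05 by edgeR. Over all genes edgeR called 0% and DESeq2 0.229% for this term, with 2670 of 22749 at an unadjusted p under 0.05 by edgeR. Hist1h2ao had the smallest p-value in that test (0.92, SE 0.68).

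Summed over all rows of a class, H1 reached 3144 ± 276.5 CPM for WT, 3379 ± 123.9 for Asxl1Tg, 3642 ± 433.9 for Srsf2P95H and 3979 ± 538.2 for DM (SD, n = 4). H4 sums were 3361 ± 718.7, 3642 ± 441.2, 4178 ± 633.2 and 4409 ± 693.7 CPM in the same order. H3 sums were 1923 ± 324.5, 2184 ± 125.1, 2161 ± 279.7 and 2401 ± 418.3. H2B was at 2819 ± 548.4 CPM in WT and 3340 ± 679.2 in DM, and H2A at 730.4 ± 133.5 and 859.5 ± 141.7. The ratio of the DM to the WT mean was 1.312 for H4, 1.266 for H1, 1.249 for H3, 1.185 for H2B and 1.177 for H2A. DM 3 was below the highest WT library in every class, so DM and WT overlapped in all 5 classes.

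**Figure D5:**
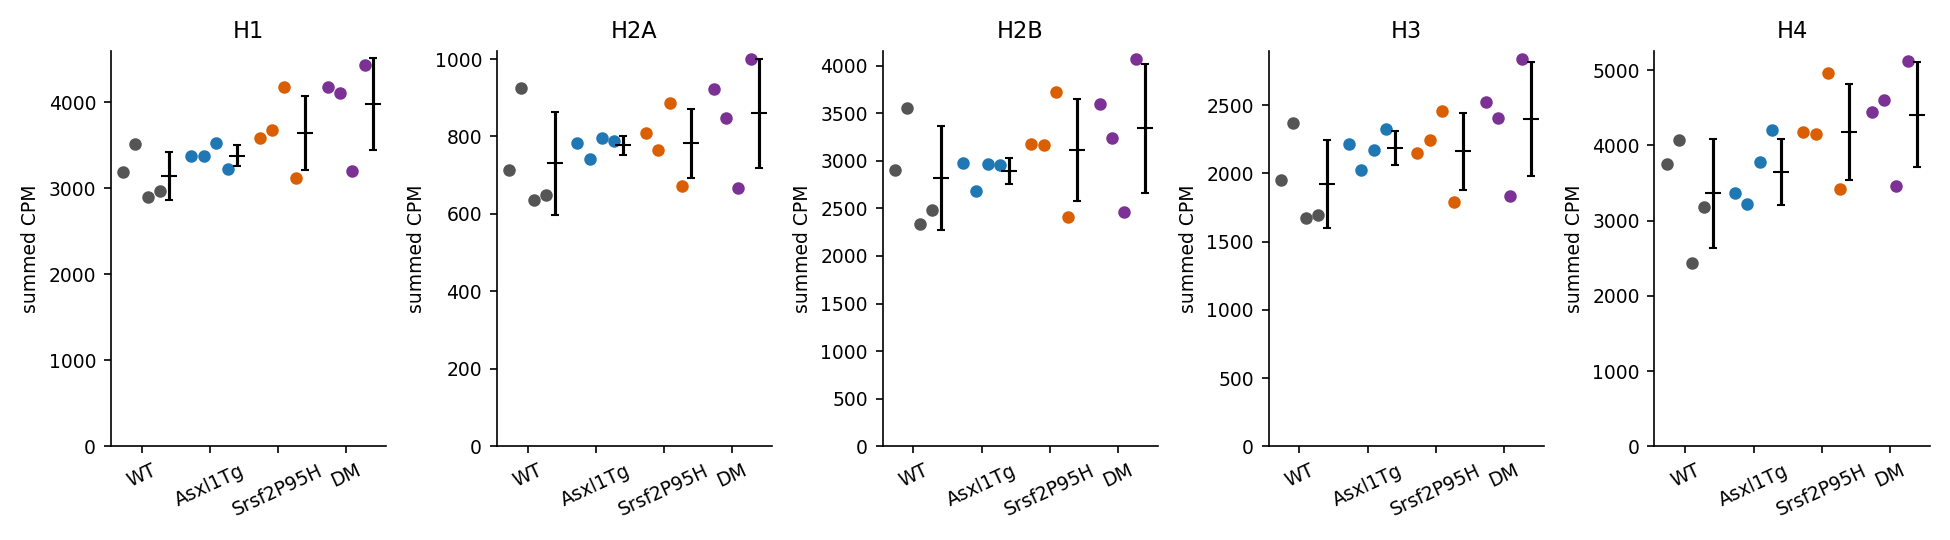
Summed CPM of all histone rows of a class in each library (points, replicates 1 to 4 from left to right; bars give mean and SD, n = 4). In each class the DM mean is the highest, and DM 3 lies within the WT range.

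Genes that act on histone mRNA were examined from lists written with earlier results of these data known. Of 16 measured genes for histone mRNA processing and turnover, 1 was called in DM against WT, Cpsf2 (0.27, adjusted p = 0.0228), a subunit of the cleavage complex, and the median was 0.23. Of 11 genes for histone gene transcription 0 were called in that comparison. An unadjusted p under 0.05 was found for 3 of the 11, and for 6954 of all 22749 genes tested. Ccne2 (0.49, adjusted p = 0.0647), the cyclin E2 gene, had the smallest p-value of the 11. Of 21 histone chaperones Nap1l4 (0.21, adjusted p = 0.0409) and Asf1b (0.49, adjusted p = 0.05 when rounded and under the threshold before rounding) were called. Of 24 DNA replication genes 4 were called, among them Pola1 (0.43), Tyms (0.41) and Mcm4 (0.37), and all 24 lay above 0 with a median of 0.32, close to the 0.31 of the histone family. With 9.39% of all genes called in this comparison, the counts of 1 of 16 and 2 of 21 stand near that background. The summed level of these 24 genes was 3528 to 4585 CPM in WT, 4336 to 5569 in Asxl1Tg, 4677 to 5937 in Srsf2P95H and 4495 to 5811 in DM. Their median was less close to that of the histone family in the other comparisons. Against WT it was 0.30 (family 0.14) in Asxl1Tg and 0.35 (family 0.21) in Srsf2P95H. In DM it was 0.02 (family 0.16) against Asxl1Tg and -0.01 (family 0.12) against Srsf2P95H. For the interaction it was -0.32 (family -0.06). Whether histone RNA follows these genes was not tested.

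Of 11 genes listed for histone variants, Macroh2a2, the gene of a macroH2A variant, had the largest difference. It was at 5.039 to 7.277 CPM in WT and 6.611 to 7.577 in Srsf2P95H, against 15.4 to 19.21 in Asxl1Tg and 16.43 to 20.88 in DM. It rose by 1.63 in Asxl1Tg (SE 0.13, adjusted p = 4.36e-06) and by 1.67 in DM (SE 0.13, adjusted p = 7.57e-06) against WT, and by 1.38 in DM against Srsf2P95H (SE 0.13, adjusted p = 6.49e-05). H2aj rose in both Asxl1Tg (0.41, adjusted p = 0.0453) and DM (0.37, adjusted p = 0.0326), and H2az1 in DM (0.44, adjusted p = 0.0353). These are 2 of 11 variants called in Asxl1Tg and 3 of 11 in DM against WT, where 1.88% and 9.39% of all genes were called. Of the calls named for DM against WT in the family and in these lists, all except that of Macroh2a2 were lost without WT 3 and without DM 2, and all except those of Macroh2a2, H1f3 and H3c8 without WT 4. The H2aj call in Asxl1Tg was lost without WT 3, WT 4, Asxl1Tg 1, Asxl1Tg 3 or Asxl1Tg 4.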

How the data were processed

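The data are the authors' unnormalized counts, 1 column a library, over 55291 gene symbols. The submitters' processing notes name mm10 as genome build, and as tools HTSeq 0.11.2, STAR 2.7.0e, Trimmomatic 0.38 and FastQC. Annotation release, strand setting and handling of reads that fit several genes are not stated in the sources used here. Members and gene lists were chosen with earlier results of these data known. Named were all older-symbol rows, the 12 called family rows with the smallest p, and per list up to 3 called genes or the smallest p.

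The test was that of edgeR 4.0.16, run in R 4.3.3 (filterByExpr with minimum count 10, TMM, quasi-likelihood fit with robust dispersion, all 16 libraries). Benjamini-Hochberg adjustment covered 22749 genes in each of 6 comparisons, and genes with an adjusted value under 0.05 count as called. CPM uses TMM-scaled library sizes. The fit was tested on simulated data. Uniqueness was counted from 100-base windows of GENCODE M21 transcripts, and coordinates are 1-based. Alternatives were DESeq2 1.42.0, other scaling and filters, the compared groups only, the replicate block, libraries left out and, added after seeing the data, the mirrored pairs summed. Over 24 pairs of same-group libraries no pair was identical, and their counts differed beyond sampling noise (chi-square per degree of freedom from 26.93 to 122.9). Of 17 processing genes 16 matched a row.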

Additional observations from a re-analysis of the deposited data

Results flagged for a closer look

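In groups of 4 libraries, a library was flagged when its gap to the nearest other exceeded Dixon's 95% critical value of the group's range. This held for 7 of 180 groups tested, and chance flags about 1 in 20 groups. Among the older-symbol rows, Hist1h4n was at 165.9 CPM in DM 2 against 124.4 to 128.6 in the other DM libraries, and Hist1h2bp was at 28.24 CPM in Asxl1Tg 4 against 34.84 to 36.17. The summed CPM of the H2B rows was 2687 in Asxl1Tg 2 against 2953 to 2975, and H2bc21 was at 13.79 CPM in that library against 11.14 to 11.54. Mcm2 was at 324.9 CPM in DM 3 against 406.1 to 419.6. Mcm4 was at 208.8 CPM in WT 4 against 263.6 to 270.3, and Nap1l4 at 166.4 CPM in WT 4 against 181.1 to 182.6.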

How the results depend on the processing

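Of the older-symbol rows, 1 was called in Srsf2P95H against WT with DESeq2 and with the replicate block, and 0 in DM against WT with the mirrored pairs summed or when WT 4 and Srsf2P95H 2 were both left out. Of the family rows, Asxl1Tg against WT gave 4 with DESeq2 (8.23% of all genes called) and 1 each with the stricter filter (4.16%), on the compared groups only (0.34%) and with the replicate block (2.85%). Srsf2P95H against WT gave 6 with DESeq2 (11.4%) and 4 with the replicate block (4.18%). DM against WT gave 20 with DESeq2 (17.2%), 6 with library size only (8.98%), 3 on the compared groups only (7.49%) and 2 without both WT 4 and Srsf2P95H 2 (6.49%). DM against Asxl1Tg gave 0 on the compared groups only (0.0791%), DM against Srsf2P95H 1 with DESeq2 (1.03%), and the interaction 1 with DESeq2 (0.229%). With each library left out in turn, older-symbol calls ran from 0 to 1 in Srsf2P95H and in DM against WT and were 0 elsewhere. Family calls ran from 0 to 2 in Asxl1Tg, 0 to 3 in Srsf2P95H and 0 to 23 in DM against WT, 0 to 1 in DM against Asxl1Tg and 0 in the other 2 comparisons. The share of all genes called ran from 0.522 to 10% in Asxl1Tg, 0 to 7.06% in Srsf2P95H and 2.52 to 11.5% in DM against WT. In DM against Asxl1Tg it ran from 0.0432 to 1.15%. The causes were not tested. Replicate numbers did not pair the libraries (correlations of same-numbered libraries from -0.293 to 0.295, with 3 of 16 libraries correlating best with their own number). Uncalled differences changed sign for Hist1h4m in Srsf2P95H against WT (0.21 without Srsf2P95H 4, -0.58 to 0.21 over libraries left out) and in DM against WT (-0.05 without DM 1, -0.12 without DM 4, and up to 0.36 over libraries left out). They did so for Hist1h2ao in DM against WT: -0.039 with library size only, -0.21 without both WT 4 and Srsf2P95H 2, and -0.21 to 0.34 over libraries left out, below 0 without WT 3, WT 4, DM 1 or DM 4. Macroh2a2 stayed called in all 17 alternatives of each of its 3 comparisons. Rows of few counts (Hist1h2ao, Hist1h2al) are limited by depth, and rows of few unique windows by read assignment.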
